A study of Mus musculus with 6 samples.

Results

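The cadherin genes read in the epithelium and the mesenchyme of the embryonic mouse bladder were Cdh1, Cdh2, Cdh3, Cdh4, Cdh6, Cdh8, Cdh11, Cdh13, Cdh16 and Cdh17. They were found by symbol, as every probe set to which the platform's annotation gives exactly 1 of these names, which yielded 21 of the 45101 probe sets on the array. All 10 genes, of 18193 with a probe set of their own, were represented, 7 of them by more than 1 probe set. The bladders came from wild-type FVB/N mice at embryonic day 13 (Theiler stage 21), were freed by dissection above the ureters and were held for 20 minutes in EDTA at 20 µM. The epithelial compartment, labelled urothelium, was then parted from the mesenchymal compartment with a needle, and unpooled total RNA went through 2 rounds of amplification before hybridisation to an Affymetrix MOE430 array. There were 3 mesenchyme arrays, numbered 1, 2 and 4, and 3 urothelium arrays, numbered 5, 7 and 8. No treatment or mutation separates the groups. The labels give no sex and leave unsaid whether each array stands for another embryo. The p-values therefore rest on the scatter of these samples alone, part of which may be technical.

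Cadherins are single-pass adhesion proteins that bind, in the presence of calcium, mostly to the same cadherin on the next cell. The classical members hold β-catenin and p120-catenin at their inner tail, and α-catenin ties that complex to actin. E-cadherin marks epithelia, whereas N-cadherin and cadherin-11 are typical of mesenchymal and neural cells. EDTA, used here to loosen the epithelium, removes the calcium on which this adhesion depends. Of the genes read, Cdh1 to Cdh4 encode type I and Cdh6, Cdh8 and Cdh11 type II classical cadherins. Cdh13 encodes T-cadherin, which is anchored by a lipid and has no inner tail, and Cdh16 and Cdh17 encode the closely related kidney and liver-intestine cadherins with a short tail, so these 3 lie outside the classical group in the strict sense.

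The compartments stood apart in their defining markers. All 8 epithelial markers were higher in urothelium, with a summed signal of 280197 to 359413 there and 6827 to 9728 in mesenchyme. The 8 mesenchymal markers were all higher in mesenchyme, at 277235 to 346188 against 14398 to 16446. Signals are linear intensities as the authors deposited them, with the same trimmed mean of 1500 on each array. Differences are given as urothelium minus mesenchyme on a log2(signal + 45) scale with their standard error. The added 45 compresses the differences of dim probe sets. A probe set passed the test when its limma p-value, Benjamini-Hochberg adjusted over 45037 probe sets, was under 0.05. Precision is limited by the small number of arrays. Levels are not compared between probe sets, since each binds its target with its own efficiency. In such bulk RNA, fewer cells of a type and less RNA per cell cannot be told apart.

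Of the 10 genes, each read by its brightest probe set, 2 were higher in urothelium (Cdh1 and Cdh17) and 4 in mesenchyme (Cdh2, Cdh6, Cdh11 and Cdh13), while Cdh3, Cdh4, Cdh8 and Cdh16 did not pass. Over all 18193 genes read in this way, 4.72% were higher in urothelium and 7.24% in mesenchyme. The median log2 difference of the 10 genes was −0.32, against −0.11 over all genes. Counted by probe set, 2 of 21 were higher in urothelium, 6 in mesenchyme and 13 did not pass, where the shares over all probe sets were 2.88% and 4.46%. The 8 that passed were also the 8 with no overlap between the compartments' arrays, where non-overlap was found in 23.1% of all probe sets.

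**Figure D1:**
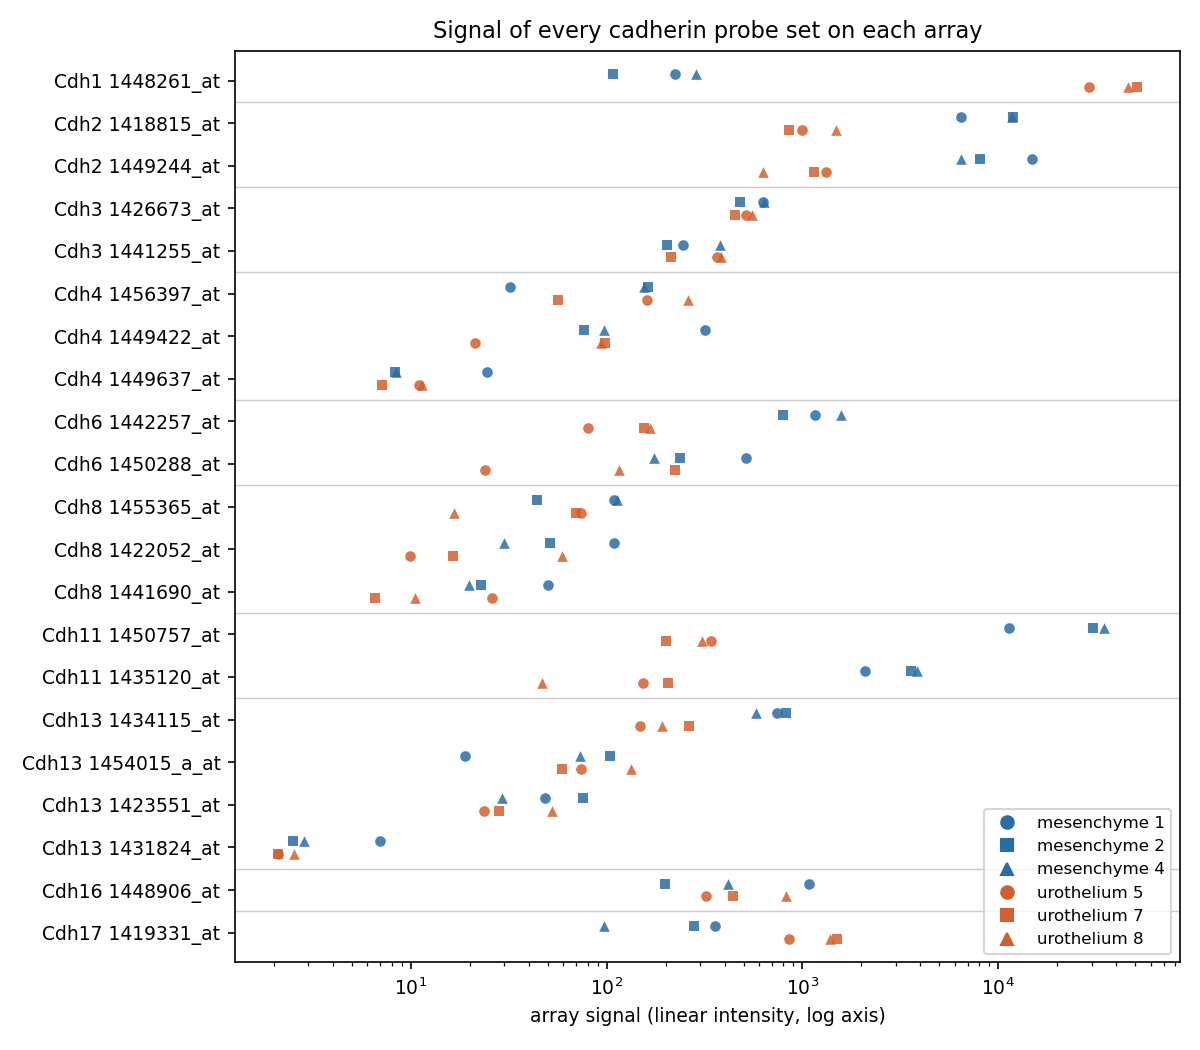
Signal of each of the 21 cadherin probe sets on a logarithmic axis, with 1 point for each array (blue for mesenchyme, orange for urothelium, 1 symbol for each array of a compartment). Cdh1 lies at 29194 or above on every urothelium array and at 287 or below on every mesenchyme array, and Cdh11 shows the reverse order.

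Cdh1 encodes E-cadherin, the adhesion protein of the epithelial adherens junction. Its only probe set, 1448261_at, read 29194, 50957 and 46167 on urothelium arrays 5, 7 and 8. The mesenchyme arrays 1, 2 and 4 read 223, 108 and 287. The compartments did not overlap, and urothelium 5 was the lowest of its group. The log2 difference was 7.42 ± 0.36, with a limma adjusted p of 3.44e-06. Mesenchyme kept 0.490% of the mean urothelial signal.

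Cdh17, the liver-intestine cadherin gene, was the other gene higher in urothelium. Probe set 1419331_at read 854, 1499.7 and 1390.2 on urothelium 5, 7 and 8, and 358, 281 and 96.7 on mesenchyme 1, 2 and 4. There was no overlap, and mesenchyme 4 and urothelium 5 were the lowest of their groups. The fitted difference was 2.25 ± 0.47 (adjusted p = 0.0140). The call was lost without mesenchyme 4 (1.80, adjusted p = 0.0503), urothelium 7 (2.10, adjusted p = 0.0938) or urothelium 8 (2.15, adjusted p = 0.0575). Of 5 intestinal epithelial markers 0 passed limma's adjusted test in either direction and 1, Vil1, had an unadjusted p under 0.05. Over all genes, 4.72% passed as higher in urothelium and 7.24% in mesenchyme, or 9.57% and 14.8% without adjustment. A count of 0 among 5 is therefore near the background. The summed signal of these markers was 243 to 378 in mesenchyme and 493 to 715 in urothelium. Vil1, the villin gene, read 36.4 to 51.2 in mesenchyme and 110.1 to 299.6 in urothelium, without overlap and in the direction of Cdh17 (1.41 ± 0.45, adjusted p = 0.103). The other 4 overlapped: Cdx1 read at most 18.3, Cdx2 at most 102, Fabp2 at most 143 and Lgals4 at most 228 on any array. The part of such cells in the Cdh17 signal was not tested.

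Among the mesenchymal cadherins Cdh11 differed most. It encodes cadherin-11, also called OB-cadherin, a type II cadherin of loose mesenchyme. The brighter probe set, 1450757_at, read 11364, 30278 and 34581 on mesenchyme 1, 2 and 4 and 342, 202 and 309 on urothelium 5, 7 and 8. Mesenchyme 1 was well below the other mesenchyme arrays, yet far above every urothelium array. The log2 difference was −6.14 ± 0.42 (adjusted p = 1.20e-05), and leaving out each array in turn gave −6.65 to −5.85. The second probe set, 1435120_at, had the same order in mesenchyme, at 2093.5, 3577 and 3853, against 153, 206 and 46.8 in urothelium. Its log2 difference was −4.23 ± 0.46 (adjusted p = 0.000189).

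Cdh2 encodes N-cadherin, the type I cadherin of mesenchyme, nerve and muscle. Both of its probe sets were higher in mesenchyme, by log2 differences of −3.11 ± 0.34 for 1418815_at (adjusted p = 0.000204) and −3.17 ± 0.39 for 1449244_at (adjusted p = 0.000452). On mesenchyme 1, 2 and 4 the first read 6447, 11819 and 11776, and on urothelium 5, 7 and 8 it read 994.5, 849 and 1483. The second read 14891, 8098 and 6469 in mesenchyme and 1315, 1149 and 629 in urothelium. The probe sets gave nearly equal differences between compartments but different orders within mesenchyme: array 1 was lowest on the first and highest on the second.

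The ratio of the second Cdh2 probe set to the first showed how the arrays differed. It was 2.31, 0.685 and 0.549 on mesenchyme 1, 2 and 4, and 1.32, 1.35 and 0.424 on urothelium 5, 7 and 8. For the beta-actin control probe sets the 3' signal over the 5' signal, which tracks RNA integrity and amplification, was 8.40, 2.37 and 3.94 on the mesenchyme arrays and 8.60, 4.89 and 2.29 on the urothelium arrays. Mesenchyme 1 was highest of its group and urothelium 8 lowest of its group on both ratios. Within each compartment the remaining arrays were in opposite orders on these ratios, though urothelium 5 and 7 were nearly equal for Cdh2. The Cdh11 ratio, 1450757_at over 1435120_at, was lowest of its group on mesenchyme 1 (5.43) and highest on urothelium 8 (6.596). The Cdh6 ratio, 1442257_at over 1450288_at, was lowest on mesenchyme 1 (2.26), while urothelium 8 lay in the middle of its group (1.44). The part of RNA quality in the probe sets' disagreement was not tested. With mesenchyme 1 and urothelium 5 left out together, the difference of Cdh2 1418815_at was −3.34 and that of Cdh11 1450757_at was −6.78.

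Cdh6, the gene of K-cadherin, a type II cadherin of kidney and neural crest, was higher in mesenchyme on its brighter probe set only. Probe set 1442257_at read 1164, 799.5 and 1566 on mesenchyme 1, 2 and 4 and 80.6, 155 and 166 on urothelium 5, 7 and 8, with no overlap. Its log2 difference was −2.76 ± 0.43 (adjusted p = 0.00232). The dimmer 1450288_at read 515, 238 and 174 against 23.9, 225 and 115. Urothelium 7 exceeded mesenchyme 4 there, and the log2 difference of −1.18 ± 0.60 did not pass (adjusted p = 0.358), with a 95% interval of −2.52 to 0.16. Of 4 neural crest and neuronal markers with a probe set, Ret was higher in urothelium, and the list's summed signal, most of it Ret there, was 1119 to 3358 in mesenchyme and 4006 to 4454 in urothelium. Without Ret the sum was 1014 to 2849 in mesenchyme and 659 to 860 in urothelium. Elavl4, a neuronal RNA-binding protein gene, lay in the direction of Cdh6 without overlap, at 626 to 2253 against 106 to 432 (−1.82 ± 0.58, adjusted p = 0.101). Tubb3 differed by −1.12 and Sox10 by 0.18, both with overlap and neither past the test. Their part in the Cdh6 difference was not tested.

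Cdh13 encodes T-cadherin, found on vascular cells and known as a receptor for adiponectin. Its brightest probe set, 1434115_at, read 743, 829 and 577 on mesenchyme 1, 2 and 4 and 148, 265 and 192 on urothelium 5, 7 and 8. Every mesenchyme array lay above every urothelium array, and the difference was −1.64 ± 0.41 (adjusted p = 0.0339). This call was lost when any single array was left out, with values of −1.82 to −1.48 and adjusted p of 0.0635 to 0.162, and also without mesenchyme 1 and urothelium 5 together. The other 3 probe sets read at most 133 on any array, overlapped between compartments and had differences of −0.26 to 0.32. All 7 endothelial markers were higher in mesenchyme, with a summed signal of 17088 to 20990 against 735 to 754 in urothelium, and their part in the Cdh13 difference was not tested.

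**Figure D2:**
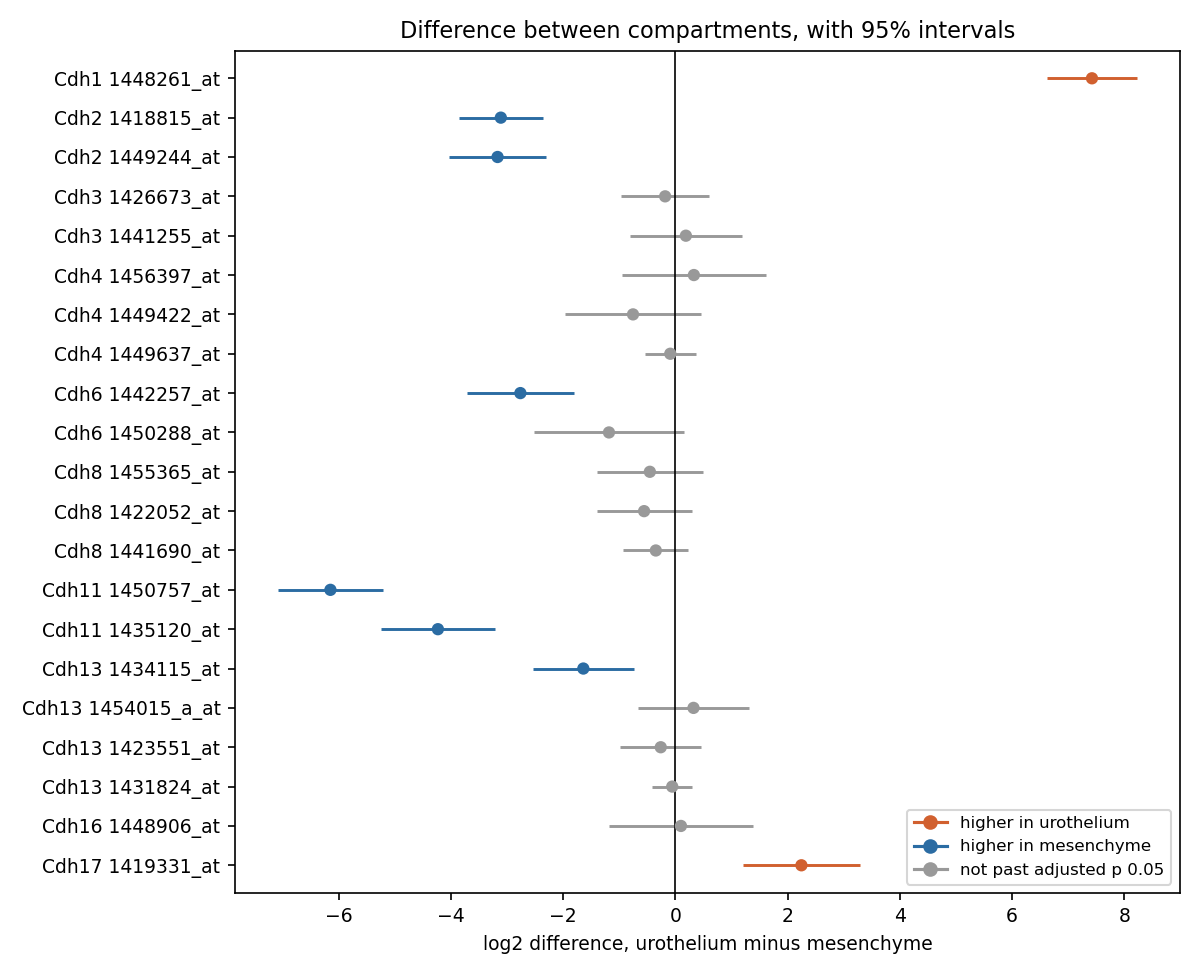
Log2 difference of each cadherin probe set, urothelium minus mesenchyme on the log2(signal + 45) scale, with bars for limma's 95% interval from 3 arrays a compartment. Cdh1 (7.42) and Cdh17 (2.25) lie to the right, 6 probe sets of Cdh2, Cdh6, Cdh11 and Cdh13 lie to the left, and the 13 grey points did not pass.

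P-cadherin is encoded by Cdh3, whose next protein-coding neighbour in the RefSeq gene table (assembly GRCm38.p6) is Cdh1. It is known from basal cells of stratified epithelia and from placenta. Probe set 1426673_at gave 629, 479.9 and 636 on mesenchyme 1, 2 and 4 and 513, 453 and 550.2 on urothelium 5, 7 and 8. The groups overlapped, and the difference of −0.18 ± 0.36 did not pass (adjusted p = 0.872). Its 95% interval, −0.97 to 0.61, stayed within a 2-fold difference on this scale. The other probe set, 1441255_at, differed by 0.19 ± 0.45, with an interval of −0.81 to 1.18. The same table places Cdh8, Cdh11 and the endothelial cadherin gene Cdh5 next to each other among protein-coding genes, and Cdh6 beside Cdh9.

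Cdh16 encodes the kidney-specific cadherin of tubule and duct epithelium. Probe set 1448906_at read 1078, 198 and 416 on mesenchyme 1, 2 and 4 and 320.1, 441 and 828 on urothelium 5, 7 and 8. The groups overlapped fully, with the highest and the lowest array both in mesenchyme. Its difference was 0.10 ± 0.58 (adjusted p = 0.960) with an interval of −1.18 to 1.38, so differences of over 2-fold in either direction lie inside it. Of 5 nephric duct markers with a probe set, Ret and Gata3 were higher in urothelium. Calb1, the calbindin gene, lay the other way without overlap, at 66.1 to 321 in mesenchyme against 25.7 to 58.6 in urothelium (−1.41 ± 0.52, adjusted p = 0.170). Pax8 and Lhx1 read at most 161 on any array and overlapped. The summed signal of the list, most of it Gata3, was 1778 to 3190 in mesenchyme and 15974 to 26729 in urothelium. Without Gata3 and Ret it was 216 to 625 against 100 to 226, and its part in the Cdh16 signal was not tested.

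Cdh4, the gene of R-cadherin, and Cdh8, that of the type II cadherin-8, are both best known from the nervous system. They were the 2 genes whose probe sets all lay below the median probe set of the array. The 3 Cdh4 probe sets read between 7.09 and 319 and differed by −0.75 to 0.33, and the 3 Cdh8 probe sets read between 6.60 and 113 and differed by −0.56 to −0.35. Adjusted p lay between 0.536 and 0.895 for all 6. Without detection calls, none of these low signals is called absent.

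Genes that were high in a compartment differed in how much signal the other compartment kept. For the 8 mesenchymal markers the urothelium kept between 1.53% (Postn) and 7.26% (Col3a1) of the mean mesenchymal signal, with a median of 3.49%. Cdh11 kept 1.12% on its brighter probe set, below all 8 markers, and 4.27% on the other. Cdh2 kept 11.1% and 10.5%, Cdh6 11.4% and Cdh13 28.2%, all above the 8 markers. In urothelium these Cdh6 and Cdh13 probe sets read only 80.6 to 166 and 148 to 265. Those signals lay around the medians of the urothelium arrays, 132 to 192, whereas Cdh2 read 629 to 1483. The marker Twist1 was also dim in urothelium, at 52.7 to 97.9, and kept 5.16%. The Cdh6 probe set that did not pass, 1450288_at, kept 39.2%. Such shares were not particular to these cadherins. Among other genes higher in mesenchyme, Emcn kept 10.4%, Pcdh19 11.6%, Pcdh18 16.4% and Dchs1 19.3%, whereas Cdh5 kept 2.67% and Pcdh12 6.54%. Of the epithelial markers, Trp63 and Foxa1 kept a smaller share in mesenchyme than Cdh1 did, and the other 6 kept more, up to 9.94%. Cdh17 kept 19.7%, above all 8 epithelial markers. Carry-over between compartments and the background of each probe set both enter such shares, and their part was not tested.

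The unequal retention of Cdh2 and Cdh11 was compared within arrays. The log2 ratio of Cdh2 1418815_at to Cdh11 1450757_at was −1.55 to −0.81 in mesenchyme and 1.42 to 2.11 in urothelium, a mean shift of 3.04. An exact two-sided permutation test over the arrays gave p = 0.1, the smallest this test can give for 3 against 3. The 4 pairings of Cdh2 and Cdh11 probe sets and 2 of Cdh6 with Cdh11 were chosen after the values were seen. Over these 6 pairs the shift was 1.06 to 3.38 and always in the same direction. Each shift equals the difference between 2 log2 differences given above, and the pairs share probe sets. The common direction therefore follows from those differences and adds nothing to them. The exact p was 0.1 for 5 pairs and 0.3 for the pair of Cdh2 1449244_at and Cdh11 1435120_at, or 0.12 and 0.3 after adjustment over the 6 pairs. This test cannot pass 0.05 with 3 arrays against 3, and no fitted test of the ratio was run.

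**Figure D3:**
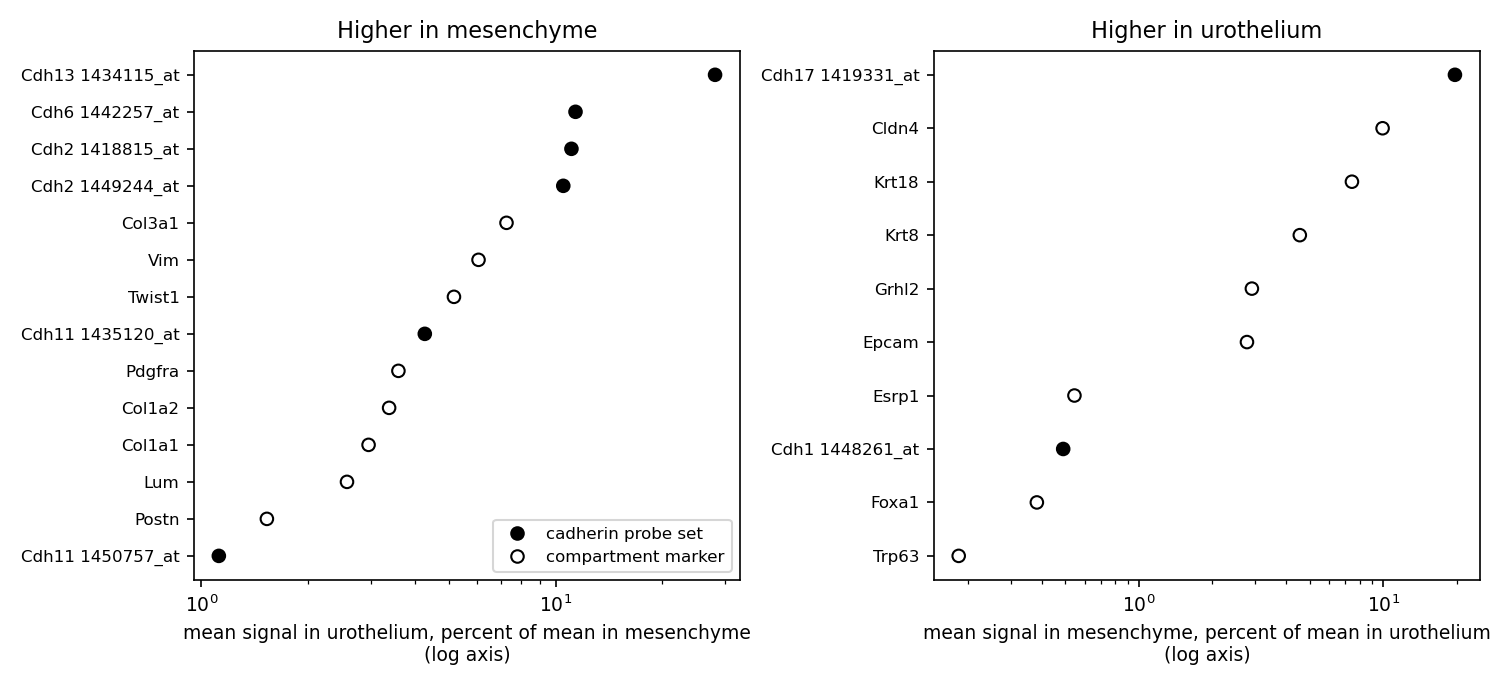
Mean signal in the compartment where a gene is low, as a percentage of its mean in the compartment where it is high, on a logarithmic axis (filled, cadherin probe sets past the test; open, compartment markers). Cdh2, Cdh6 and Cdh13 lie above all 8 mesenchymal markers and Cdh11 1450757_at (1.12%) below them, while Cdh1 (0.490%) lies among the lowest epithelial markers. The urothelial signals of Cdh6 and Cdh13 were around the medians of their arrays.

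The genes whose pattern over the 6 arrays was nearest that of Cdh1 were Esrp1, Lgals3 and Clca1. Their log2 values, each centred on the gene's mean, lay at a root mean square distance of 0.41, 0.47 and 0.48 from those of Cdh1, out of 18183 genes compared. Nearest to Cdh11 were Vwf (0.28), Postn (0.40) and Nid1 (0.45). Since they were chosen by distance on these same arrays, sharing the order of Cdh11 was favoured from the start. All 3 had, like Cdh11, their lowest mesenchymal value on array 1, which was the lowest in 32% of all probe sets. Vwf, the von Willebrand factor gene of endothelium, read 1540 there against 5309 and 4273 on mesenchyme 2 and 4. The matrix gene Postn read 8525 against 15870 and 17158, and Nid1, the gene of the basement membrane protein nidogen-1, read 11292 against 24058 and 19763. Over 6 arrays of 2 compartments these distances are a description.

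Proteins that partner cadherins inside the cell, and the nectins, which are immunoglobulin-like junction proteins, made up a further list. Of its 18 genes, all with a probe set, 5 were higher in urothelium and 0 in mesenchyme (median log2 difference 0.58). Over all genes the shares were 4.72% and 7.24%, so the count of 0 among 18 is near the background. Without adjustment limma's p was under 0.05 for 6 and 0, where the shares over all genes were 9.57% in urothelium and 14.8% in mesenchyme. The catenins of the classical complex did not pass. Ctnnb1, the gene of β-catenin, read 89990, 64550 and 64119 in mesenchyme and 123702, 89601 and 75004 in urothelium, a log2 difference of 0.39 ± 0.29 with an interval of −0.27 to 1.04. Another of its probe sets, 1450008_a_at, had no overlap (7731 to 9688 against 14945 to 16276) but missed the threshold as well (0.81 ± 0.24, adjusted p = 0.0823). Ctnna1, the gene of αE-catenin, differed by 0.62 ± 0.28 (adjusted p = 0.287) and passed only when arrays were weighted (0.75, adjusted p = 0.0319). That probe set, 1437807_x_at, is of the kind marked x, which can bind other transcripts. The similarly bright 1448149_at differed by 0.51 ± 0.30 (adjusted p = 0.442), and the dim 1436631_at and 1437275_at by 0.14 and 0.13, without passing. Plakoglobin, p120-catenin and the other α-catenins were named after their values were seen. Jup differed by 1.10 ± 0.42 (adjusted p = 0.177) and Ctnnd1 by −0.38 ± 0.32 (adjusted p = 0.637). Jup had no overlap, at 366 to 523 in mesenchyme against 619 to 1673 in urothelium. By their brightest probe sets, the dim Ctnna2 (−1.09) and Ctnna3 (−0.63) lay the other way without overlap and did not pass. The other Ctnna3 probe set (0.50) and further Ctnnd1 probe sets (−0.14 and 0.54) overlapped between compartments and did not pass.

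Among the partner genes higher in urothelium, Nectin4, a nectin of epithelia, read 153, 157 and 109 on the mesenchyme arrays and 8847, 6772 and 3632 on urothelium 5, 7 and 8, a log2 difference of 5.05 ± 0.39 (adjusted p = 2.22e-05). Ctnnd2, the gene of δ-catenin, a p120 relative best known from neurons, read 905, 557 and 884 against 7608, 7154 and 7825 (3.22 ± 0.29, adjusted p = 6.40e-05). The second probe sets of Nectin4 and Ctnnd2 also passed, with differences of 2.52 and 2.62. Camsap3, which caps microtubule minus ends, and Plekha7, which links p120-catenin to those ends, differed by 3.23 ± 0.51 and 2.49 ± 0.32. Of the further Plekha7 probe sets 1 passed (1.87) and 1 did not (−0.21, adjusted p = 0.826). Pkp4, another p120 relative, differed by 2.04 ± 0.36, and its second probe set, with overlapping groups, did not pass (1.13, adjusted p = 0.536). The other nectins did not pass: Nectin1, Nectin2 and Nectin3 differed by 0.40, −0.23 and 0.01. All 5 calls held in every alternative that was run.

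**Figure D4:**
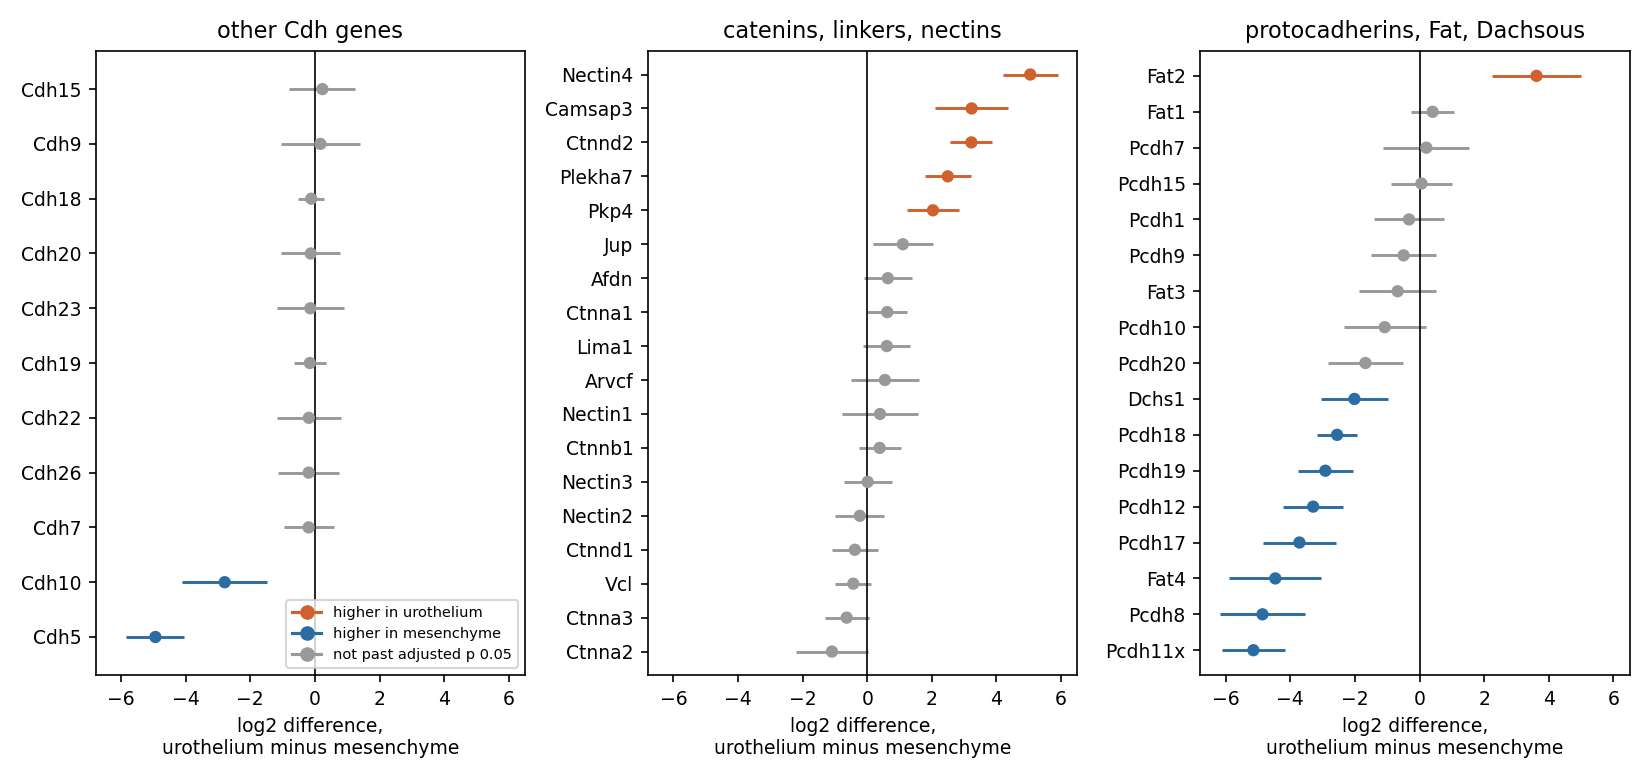
Log2 difference, urothelium minus mesenchyme, of the brightest probe set of each gene in 3 lists, with limma's 95% interval (orange, higher in urothelium; blue, higher in mesenchyme; grey, not past the test). Nectin4 (5.05) leads the partners, whereas Pcdh11x (−5.14), Pcdh8 (−4.86) and Fat4 (−4.46) lie lowest among protocadherins and Fat genes at an added constant of 45; at 179 Fat4 is the lowest of the 3.

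Of 13 further genes numbered as cadherins 11 had a probe set, and 2 were higher in mesenchyme, where the share over all genes was 7.24%. Cdh5 encodes VE-cadherin of endothelial junctions and read 6102, 4511 and 5199.98 in mesenchyme against 202, 168 and 52.5 in urothelium (−4.94 ± 0.41, adjusted p = 3.55e-05). It is itself 1 of the 7 endothelial markers given above, all higher in mesenchyme. The dimmer Cdh5 probe set, 1422047_at, overlapped between compartments and did not pass (−0.40, adjusted p = 0.826). Cdh10, a type II cadherin gene, read 1226, 334 and 1119 against 162, 29.2 and 65.3 (−2.79 ± 0.60, adjusted p = 0.0153). Its call was lost without mesenchyme 1 (−2.48), mesenchyme 4 (−2.54) or urothelium 7 (−2.45), and its other 3 probe sets did not pass. By limma's test 0 of 11 were higher in urothelium, adjusted or with an unadjusted p under 0.05. At 4.72% and 9.57% over all genes, a count of 0 among 11 is near the background. The brightest that did not pass were Cdh22 (−0.19) and Cdh15 (0.23).

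Protocadherins and the giant Fat and Dachsous cadherins, which do not bind catenins in the classical way, formed the last list. Of 17 with a probe set, 8 were higher in mesenchyme and 1 in urothelium, with a median log2 difference of −1.67. Over all genes, 7.24% were higher in mesenchyme and 4.72% in urothelium. Without adjustment limma's p was under 0.05 for 9 and 1, against 14.8% and 9.57% of all genes. Pcdh11x read 1883, 2240.03 and 1199.7 on mesenchyme 1, 2 and 4 and 11.6, 2.51 and 1.47 on urothelium 5, 7 and 8 (−5.14 ± 0.45, adjusted p = 4.71e-05). Pcdh8, a protocadherin of early mesoderm, differed by −4.86 ± 0.60, Pcdh17 by −3.72 ± 0.51, Pcdh12, a protocadherin of endothelium, by −3.29 ± 0.42, Pcdh19 by −2.91 ± 0.38 and Pcdh18 by −2.55 ± 0.28. Further, dimmer probe sets of Pcdh11x (−0.63), Pcdh12 (0.05 and 0.35) and Pcdh19 (−0.38) did not pass. Another of Pcdh19 (−2.44) passed, as did the further probe sets of Pcdh17 (−4.45) and Pcdh18 (−2.55 and −3.26). The brightest probe set of Pcdh8 is of the kind marked x, which can bind other transcripts, and its other probe set gave −2.73. The sizes of these differences depend on the added constant, since the urothelial signals are dim. With 1 in place of 45, Pcdh11x differed by −8.49, Pcdh8 by −6.93 and Fat4 by −4.66, and with 179 by −3.37, −3.33 and −4.02, so their order is not settled.

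Fat4 and Dchs1 encode the receptor and ligand of a planar polarity and growth pathway, and both were higher in mesenchyme. Fat4 read 26109 on mesenchyme 1 but 3946 and 4802 on mesenchyme 2 and 4, against 524, 320.4 and 183 in urothelium. Its second probe set had the same order, at 6662, 679 and 1083. On its brightest probe set the difference was −4.46 ± 0.64 (adjusted p = 0.00132), and −3.60 without mesenchyme 1. Dchs1 differed by −2.01 ± 0.47 (adjusted p = 0.0257), a call that was lost without mesenchyme 2 (−2.00), mesenchyme 4 (−1.79), urothelium 5 (−1.80) or urothelium 7 (−1.95). Fat2 was the gene higher in urothelium, at 655, 1739.8 and 1489.9 against 207, 19.1 and 18.6 (3.62 ± 0.62, adjusted p = 0.00420). Fat1 and Pcdh7, the brightest that did not pass, differed by 0.41 ± 0.30 and 0.21 ± 0.60.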

How the data were processed

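Expression was measured in 6 samples on 6 arrays. The authors deposited linear intensity values, 1 for each probe set and array. The submitters' processing notes name GCOS; which algorithm, settings and genome build were used is not given in the sources used here. Arrays had the same 2% trimmed mean and were not rescaled; this would hide a difference in total RNA. Of 45101 probe sets 64 controls were left out. Gene names came from the platform annotation, where 34945 probe sets had 1 symbol, 932 several and 9160 none. Values were taken as log2(signal + 45), 45 being their 25th percentile, and fitted over 45037 probe sets with limma 3.58.1 in R 4.3.3 (lmFit, eBayes with an intensity trend), with compartment as factor. A gene is read by the probe set with the highest mean log2 value. The fit was tested on simulated data. The cadherin genes and the lists were chosen with earlier results of these data known. In the further lists, genes past the test and the 2 brightest others are named. No batch or date is given. Alternatives were pseudocounts of 1 and 179, quantile normalization, median centring, a filter on dim probe sets, no intensity trend, array weights, 1 probe set a gene, and leaving out arrays. Sequences of the genes whose results are described were not used here.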

Additional observations from a re-analysis of the deposited data

How the results depend on the processing

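The calls of Cdh1, Cdh2, Cdh6 and Cdh11 by their brightest probe sets held in all 15 alternatives. The log2 difference ranged from 6.77 to 7.75 for Cdh1, −3.46 to −2.92 for Cdh2, −3.14 to −2.09 for Cdh6 and −6.78 to −5.65 for Cdh11. Cdh17 passed in 12 of 15 (1.77 to 2.79) and Cdh13 in 8 of 15 (−1.85 to −1.23). Leaving out each array in turn gave 1 to 2 cadherin genes, and 1 to 2 probe sets, higher in urothelium, and 1 to 2 further Cdh genes higher in mesenchyme. The other counts of these lists stayed within 1.5 times. Cdh3 changed sign with quantile normalization (0.0435) and median centring (0.0054). Cdh4 did so with array weights (−0.39), without mesenchyme 1 and urothelium 5 together (−0.21), and among single arrays left out (−0.14 to 0.77), as did Cdh16 (−0.42 to 0.68). The cause was not tested. Median centring moved the median of all probe sets from −0.07 to 0.11; relative to the median, Cdh1 differed by 7.50, Cdh2 by −3.04 and Cdh11 by −6.07. Over all probe sets, the 1296 and 2010 calls became 725 and 1257 without urothelium 7, 851 and 1397 without mesenchyme 4, 860 and 1406 without mesenchyme 2, and 2673 and 3735 with array weights. No paired analysis was possible because the compartments share no replicate number. Signals near the added 45 limit what can be said of Cdh4, Cdh8 and 3 probe sets of Cdh13.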

Other observations

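Mesenchyme 1 was the lowest mesenchyme array for both Cdh11 probe sets, for both Pcdh8 probe sets (704 against 2318 and 3406 on the brighter) and for Pcdh17 1436920_at (489 against 2996 and 2847). It was the highest for both Fat4 probe sets, for Cdh2 1449244_at, for Cdh6 1450288_at and for Cdh16. For Pcdh17 the brighter probe set, 1453070_at, did not share this order, at 1199.9, 1399.6 and 1224.7 on mesenchyme 1, 2 and 4. These genes were picked after their values were seen. Over the 78 probe sets of cadherin, protocadherin, Fat and Dachsous genes, mesenchyme 1 was the lowest mesenchyme array in 30.8% and the highest in 48.7%, near its shares of 32% and 49.3% over all probe sets. Mesenchyme 2 was lowest in 37.2% and highest in 26.9% of the 78, and mesenchyme 4 in 32.1% and 24.4%.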
